A study of Mus musculus with 7 samples.

Results

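Transcripts that carry only a placeholder name were examined in single oocytes with and without Setd1b. Their symbols are Gm with a number, which marks a predicted mouse gene model, or end in Rik, which marks a RIKEN full-length cDNA clone. The 2043 transcripts described here were selected on annotation and level from 33437 transcripts, also called rows, in the table. The table names a Gm or Rik gene for 6050 rows, and for 3847 of them that gene lies on the strand of the row. Of these, 34 rows in 3 windows of chromosomes 4 and 5 were left out, and 1770 of the other 3813 had a mean below 1 RPM over the 7 libraries. RPM is the share of a library's mapped reads that fell in a transcript, so the total RNA of an oocyte was not measured. The level of 1 RPM was taken over both genotypes, so a transcript high in 1 genotype alone could become a member. Just inside it lay Gm37240, E130114P18Rik and Gm38300 with mean levels of 1.0 RPM each, and just outside it lay 1110038B12Rik, Gm49128 and Gm8177 with mean levels of 0.997, 0.996 and 0.996 RPM.

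All oocytes were germinal vesicle (GV) oocytes, fully grown and arrested before the meiotic divisions, from 21-day-old females in which, per the labels, both Setd1b alleles were floxed. The labels give the strain as C57BL6, and the study's methods name a C57BL/6OlaHsd background. In the 4 Setd1b cKO libraries the female was positive for Gdf9-Cre, a recombinase driven by an oocyte promoter that is active from early follicle growth, and in the 3 Setd1b WT libraries the labels give her as negative for it. The study's methods also allow WT females that carry Gdf9-Cre and an intact Setd1b allele, so the Cre status of the controls is not settled. Each library was made from 1 oocyte, and whether oocytes came from separate females is not stated, so p-values measure the spread between these oocytes. SETD1B places methyl groups on lysine 4 of histone H3, a mark typical of active promoters, and works in a complex whose subunit CXXC1 binds unmethylated CpG dinucleotides. Placeholder names cover a mixed set: long non-coding RNAs, RNAs antisense to other genes, copies of genes that have lost their function (pseudogenes), and coding genes whose product was not yet named. Growing oocytes are known to transcribe many such loci, often from promoters inside retrotransposons.

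Depth and the labels were checked first, and means below are given with the SD over 4 cKO or 3 WT libraries. The libraries held 8582493 to 12972366 mapped reads, so that 1 read was worth 0.0771 to 0.117 RPM, which covers counting error only since amplified reads are not independent molecules. Over the members, Pearson correlations of log2(RPM + 1) were 0.887 to 0.968 within genotypes and 0.838 to 0.918 between them, and cKO replicate 4 deviated from its group together with WT replicate 3 (r = 0.608 across transcripts). All 13 oocyte markers in the table had a mean of at least 10 RPM, with a summed level of 27795 to 29245 RPM in the Setd1b cKO and 33534 to 35009 RPM in the WT. The summed level of 14 granulosa markers was 175 to 199 RPM in the cKO and 201 to 232 RPM in the WT, with Foxl2 and Amh at 3 reads or fewer in every library. The lower sum in the cKO came from Esr2, at 86.8 RPM in the cKO and 148 RPM in the WT (means). Without Esr2 the other 13 summed to 97 to 114 RPM in the cKO and 58.5 to 73.3 RPM in the WT, and 12 of them had the higher mean in the cKO, with Inha at 8.07 and 1.71 RPM, Wnt4 at 13.6 and 4.97 RPM and Nr5a2 at 38.8 and 27.8 RPM in the cKO and the WT (means), and no marker of the list passed the threshold in limma. Theca and stroma markers summed to 0.583 to 2.18 RPM and 0.655 to 2.83 RPM, and blood and endothelium markers to 11.9 to 27.0 RPM and 16.7 to 21.8 RPM, with both globin genes at 0 and the macrophage gene Cd68 higher in the cKO (log2 fold change 1.36). The part of these markers in the results below was not tested. Setd1b itself was at 8.31, 16.7, 12.8 and 2.68 RPM in the cKO and at 17.7, 16.3 and 8.61 RPM in the WT, values that overlapped (two-sided exact permutation p = 0.40, with 0.0286 the smallest possible). A placeholder transcript, Gm26745 (chromosome 5, 123047373 to 123230871, minus strand), spans the Setd1b locus on the other strand. It was at 10.2, 12.7, 12.9 and 8.27 RPM in the cKO and at 10.04, 11.3 and 7.95 RPM in the WT, levels that overlapped (log2 fold change 0.15, SE 0.26, limma adjusted p = 0.797), and it was singled out after its values were seen.

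The sequences below are the promoters of those among the 20 leading transcripts whose RefSeq promoter lies within 500 bases of the start of the row. They are shown for their CpG, the dinucleotide that CXXC1 binds when unmethylated. Each runs 5′ to 3′ on the strand of the gene, from 250 bases before to 50 bases after the RefSeq start (GRCm38.p6), with CpG dinucleotides in capitals. Gm41253 (chr14:120806243-120806542, minus strand, 10 CpG) and Gm10499 (chr17:36145900-36146199, minus strand, 7 CpG) were higher in the cKO. Gm14149 (chr2:151204945-151205244, plus strand, 15 CpG), Gm35333 (chr13:60434711-60435010, minus strand, 5 CpG) and 1700001L19Rik (chr13:68597189-68597488, plus strand, 7 CpG) were lower.
Gm41253: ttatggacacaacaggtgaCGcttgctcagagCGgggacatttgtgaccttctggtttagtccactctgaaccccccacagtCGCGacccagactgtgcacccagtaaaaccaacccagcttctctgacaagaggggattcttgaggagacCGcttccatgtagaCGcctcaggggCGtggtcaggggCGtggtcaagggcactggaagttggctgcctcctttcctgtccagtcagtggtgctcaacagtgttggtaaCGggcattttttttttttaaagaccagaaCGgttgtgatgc
Gm10499: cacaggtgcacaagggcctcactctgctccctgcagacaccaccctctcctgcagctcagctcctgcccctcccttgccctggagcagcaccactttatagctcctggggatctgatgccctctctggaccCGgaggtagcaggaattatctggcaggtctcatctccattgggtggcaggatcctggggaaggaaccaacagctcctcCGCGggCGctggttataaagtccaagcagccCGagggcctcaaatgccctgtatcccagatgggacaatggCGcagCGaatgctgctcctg
Gm14149: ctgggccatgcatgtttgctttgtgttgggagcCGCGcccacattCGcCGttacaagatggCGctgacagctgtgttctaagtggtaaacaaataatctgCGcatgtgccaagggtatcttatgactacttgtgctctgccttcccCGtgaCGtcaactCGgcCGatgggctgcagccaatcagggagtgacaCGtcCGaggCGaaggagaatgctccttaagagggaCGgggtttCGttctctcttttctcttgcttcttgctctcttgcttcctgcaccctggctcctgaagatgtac
Gm35333: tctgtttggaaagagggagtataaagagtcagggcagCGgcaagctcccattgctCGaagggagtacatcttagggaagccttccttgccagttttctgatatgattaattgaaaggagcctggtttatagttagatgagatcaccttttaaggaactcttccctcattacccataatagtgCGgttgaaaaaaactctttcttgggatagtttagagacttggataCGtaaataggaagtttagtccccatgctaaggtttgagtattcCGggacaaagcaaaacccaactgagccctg
1700001L19Rik: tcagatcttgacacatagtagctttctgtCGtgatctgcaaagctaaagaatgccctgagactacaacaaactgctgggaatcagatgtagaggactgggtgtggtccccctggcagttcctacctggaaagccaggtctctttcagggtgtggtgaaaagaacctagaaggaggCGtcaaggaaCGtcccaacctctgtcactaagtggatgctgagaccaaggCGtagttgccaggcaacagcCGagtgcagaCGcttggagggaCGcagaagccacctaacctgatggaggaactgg

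Transcripts with placeholder names changed in both directions in the Setd1b cKO, and in RPM, though not after centring or quantile normalisation, more of them were higher than lower. Of 2043 members 2028 were tested, and 163 passed an adjusted p under 0.05 and 2-fold in limma, which is 8.04% of them against 5.71% over all 18179 rows tested. In the cKO 106 members were higher, 5.23% of those tested against 3.76% over all rows, and 57 were lower, 2.81% against 1.95%. Of those called, 22 had a mean below 1 RPM in the WT and 6 in the cKO, so that they became members only through the genotype in which they were high. Among the 1830 members with both means at 1 RPM or more, 84 were higher and 51 lower. All rows were not counted under this condition, so these counts have no share over all rows beside them. The median log2 fold change was 0.14 over the members and 0.12 over all rows. Members past the threshold had median log2 fold changes of 1.49 where higher and -1.59 where lower, with extremes of 3.31 and -3.75. In 481 of the members tested (23.7%) every library of 1 genotype lay above every library of the other, against 20.3% of all rows. It held for 105 of the 106 higher and for all 57 lower members, but a call needs a difference large against the spread. Separation among called members is therefore no further finding. At an unadjusted p under 0.05, 352 members were higher and 193 lower, which is 17.4% and 9.52% of those tested against 14.2% and 7.52% over all rows.

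Rows with other kinds of name were set beside the members at the same level of 1 RPM. Same-strand rows with any other symbol passed the threshold in 4.83% of 9055 tested, with 265 higher and 172 lower. Rows named for a gene on the opposite strand passed in 5.02% of 4001 and rows with no annotated gene in 8.02% of 2531. The 24 Gm and Rik rows inside the windows left out stood at 58.3%, with 5 higher and 9 lower. The differences between these shares were not tested.

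The balance between higher and lower calls depended on the scaling. Centring each library on its median transcript shifted the median log2 fold change of all rows by -0.16, and 68 members were then higher and 85 lower, so that 44.4% of the calls were higher against 65% in RPM. After quantile normalisation 61 were higher and 69 lower. The whole table turned in the same way. Of the calls over all rows 65.8% were higher in RPM, 46.3% after centring and 49.2% after quantile normalisation. All 57 lower members were still called after centring, as were 68 of the 106 higher ones. The counts also rested on single libraries. Without WT replicate 2 they fell to 22 higher and 18 lower, without WT replicate 1 to 31 and 28, without cKO replicate 3 to 49 and 39, and without cKO replicate 1 to 55 and 37. Without both cKO replicate 4 and WT replicate 3, the pair that deviated together, 153 members were higher and 80 lower, among them 100 of the 106 and 52 of the 57.

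**Figure D1:**
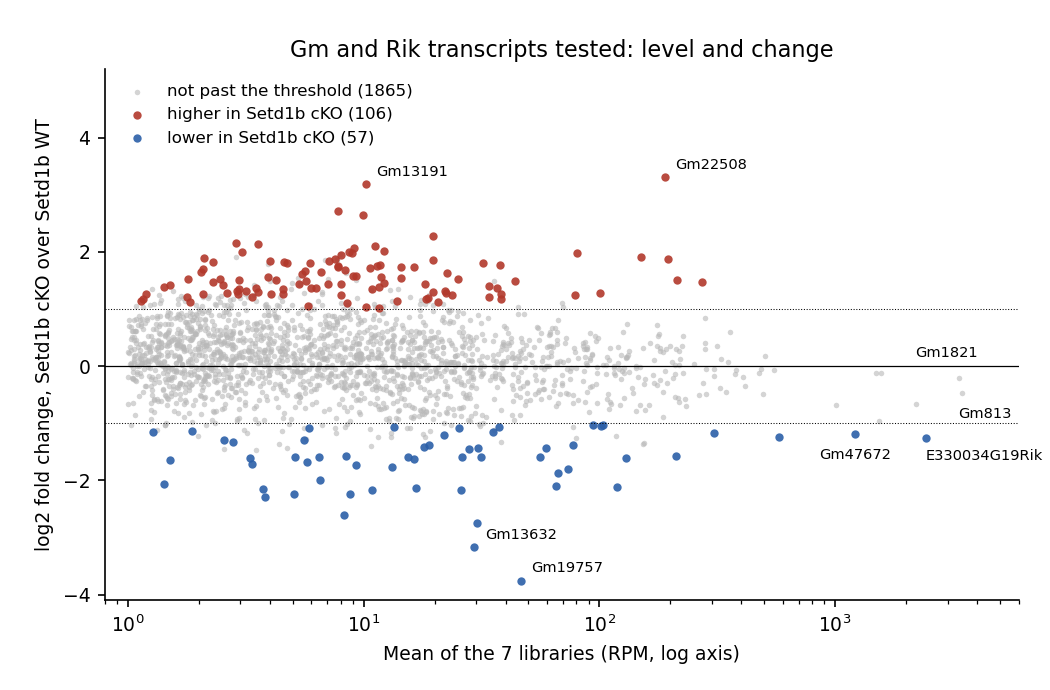
Each point is 1 of the 2028 Gm and Rik transcripts tested, with its mean RPM over the 7 libraries on a log axis and its log2 fold change, Setd1b cKO over Setd1b WT, on the vertical axis. The 106 higher members lie mostly below 64 RPM, while Gm47672 and E330034G19Rik, among the transcripts with the most reads, are below -1, the dotted line that marks 2-fold.

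The largest increases were mostly in transcripts at a low level in the WT. The 10 largest increases and decreases were taken from called members whose genotypes did not overlap, so the gap between the genotypes is no finding in them. Since 1 RPM was added before taking log2, the changes of low transcripts come out too small. For Gm13191 the log2 fold change was 1.84 with a pseudocount of 5 RPM, 3.18 with 1 RPM and 4.09 with 0.1 RPM. Levels belong to rows, and a gene type given for a row is that of the gene it is named for. By at least 50% of the joint span, 9 of the 20 leading rows matched that gene. Gm22508 (chromosome 18, 69755634 to 69779732, minus strand), a row of 24 kb that takes its name from a small misc_RNA filling only 0.46% of the joint span, was at 210, 276, 529 and 231 RPM in the cKO and at 24.6, 29.5 and 31.6 RPM in the WT. Every cKO library was above every WT library (log2 fold change 3.31, SE 0.31, limma adjusted p = 0.000855). Gm13191, a long intergenic non-coding RNA (lincRNA) on chromosome 2 (3925433 to 3929582, minus strand), was at 7.52, 13.8, 17.4 and 30.6 RPM in the cKO and at 0.729, 0.694 and 1.03 RPM in the WT. It rose by 3.18 on the log2 scale (SE 0.40, limma adjusted p = 0.00317), while Gm13180, which overlaps it on the other strand, was at 67.1 ± 38.9 RPM (SD, n = 4) and 72.5 ± 31.0 RPM (SD, n = 3) with a log2 fold change of -0.16. With a WT mean of 0.817 RPM, Gm13191 became a member only through the cKO.

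Gm4756, annotated as protein coding on chromosome 12 (72605568 to 72619566, minus strand), was at 8.51, 22.8, 10.8 and 9.09 RPM in the cKO and at 0.162, 2.16 and 1.03 RPM in the WT (log2 fold change 2.71, SE 0.42, limma adjusted p = 0.00621). The row named Gm41253 (chromosome 14, 120804008 to 120806520, minus strand) shares 45.4% of the joint span with that lincRNA, whose promoter is printed above. It was at 13.3, 14.1, 27.6 and 9.32 RPM in the cKO and at 1.62, 0.617 and 2.81 RPM in the WT. Gm41253 rose by 2.65 on the log2 scale (SE 0.40, limma adjusted p = 0.00555).

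Gm15631 is a lincRNA on chromosome 6 (105672768 to 105677585, minus strand) that starts within 1 kb of Cntn4 and reads away from it. Its level was 19.1, 27.3, 40.2 and 35.5 RPM in the cKO and 6.56, 5.32 and 4.12 RPM in the WT (log2 fold change 2.28, SE 0.30, limma adjusted p = 0.00338). Cntn4, which encodes contactin 4, an adhesion protein best known from neurons, rose with it, from 12.7 ± 4.73 RPM (SD, n = 3) in the WT to 29.7 ± 2.63 RPM (SD, n = 4) in the cKO (log2 fold change 1.23, limma adjusted p = 0.0280). Gm19757, the transcript with the largest fall on the log2(RPM + 1) scale among all members, ends 182 kb from Gm15631 on the same strand, so that neighbouring placeholder transcripts moved in opposite directions.

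Gm10499, annotated as a transcribed pseudogene in the class I part of the major histocompatibility complex on chromosome 17 (36141758 to 36145923, minus strand), was at 121, 86.0, 102 and 168 RPM in the cKO and at 25.7, 23.2 and 39.0 RPM in the WT. It rose by 1.98 on the log2 scale (SE 0.28, limma adjusted p = 0.00444), and since class I genes are near copies of each other, the assignment of its reads is uncertain. The row named Gm26629 (chromosome 19, 50706767 to 50742584, plus strand) shares 35.4% of the joint span with that gene, annotated as an antisense RNA. It was at 15.4, 10.5, 13.8 and 12.6 RPM in the cKO and at 3.24, 0.925 and 4.30 RPM in the WT. Its change was 1.99 on the log2 scale (SE 0.36, limma adjusted p = 0.0110). The other 3 of the 10 leading increases were rows named for Gm5039, a coding gene model on chromosome 12, Gm48578, a lincRNA on chromosome 12, and Gm38642, a processed transcript on chromosome 9. They share 41.2%, 13.1% and 0.182% of the joint span with those genes. The mean levels of these rows rose from 3.08, 2.56 and 3.9 RPM in the WT to 17.3, 14 and 18.5 RPM in the cKO. The calls of Gm5039 (adjusted p = 0.0546 in limma without WT replicate 1) and Gm48578 (up to 0.0670 in limma without WT replicate 1 or 2) rested on single libraries.

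The 10 largest decreases had WT means between 10.1 and 213 RPM. Gm19757 (chromosome 6, 105481240 to 105491264, minus strand) was at 2.77, 36.2, 2.53 and 3.15 RPM in the cKO and at 89.0, 128 and 63.2 RPM in the WT. The genotypes were apart, but cKO replicate 2 stood an order of magnitude above the other cKO libraries (log2 fold change -3.75, SE 0.72, limma adjusted p = 0.0140). Without WT replicate 1 or 2 its adjusted p in limma was up to 0.0768.

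Gm13632 (chromosome 2, 70877020 to 70884408, plus strand), a lincRNA, was at 1.78, 9.55, 10.9 and 4.78 RPM in the cKO and at 58.5, 67.2 and 53.6 RPM in the WT (log2 fold change -3.17, SE 0.45, limma adjusted p = 0.00444). An unnamed row on the other strand of the same locus fell as well, from 9.92 ± 4.54 RPM (SD, n = 3) in the WT to 0.711 ± 0.126 RPM (SD, n = 4) in the cKO. Gm14149, the lincRNA on chromosome 2 (151205195 to 151231614, plus strand) with the most CpG among the printed promoters, was at 2.97, 10.5, 16.1 and 6.64 RPM in the cKO and at 51.2, 69.9 and 53.7 RPM in the WT. It fell by 2.74 on the log2 scale (SE 0.43, limma adjusted p = 0.00612). Gm44621, a lincRNA on chromosome 8 (8715754 to 8721812, minus strand), was at 44.4, 40.3, 40.8 and 65.7 RPM in the cKO and at 211, 148 and 281 RPM in the WT (log2 fold change -2.11, SE 0.27, limma adjusted p = 0.00328).

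Gm35333, a lincRNA on chromosome 13 (60422219 to 60434582, minus strand), was at 7.03, 7.17, 9.06 and 17.5 RPM in the cKO and at 58.1, 43.5 and 39.2 RPM in the WT (log2 fold change -2.17, SE 0.32, limma adjusted p = 0.00545). 1700001L19Rik, the only Rik symbol among the 20 and annotated as protein coding (chromosome 13, 68597439 to 68614231, plus strand), was at 6.24, 0.906, 4.61 and 3.38 RPM in the cKO and at 13.4, 13.3 and 34.0 RPM in the WT. Its fall of 2.17 on the log2 scale (SE 0.48, limma adjusted p = 0.0250) did not pass without cKO replicate 3 or without any 1 of the WT replicates, with an adjusted p of up to 0.0710 in limma. Gm8420 on chromosome 1, a row of 33 kb around a processed pseudogene, was at 1.30 ± 0.414 RPM (SD, n = 4) in the cKO and 10.1 ± 3.87 RPM (SD, n = 3) in the WT. Gm47627 on chromosome 10, named for a transcript of the TEC type, which still awaits experimental proof, fell from 15.8 ± 6.48 RPM (SD, n = 3) to 2.57 ± 3.50 RPM (SD, n = 4), a call that was lost without cKO replicate 1 or 2 or WT replicate 1 or 2 (adjusted p up to 0.113 in limma).

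Only at 1 place did 3 or more called members lie within 200 kb of each other, and all of its rows fell. Gm47872 names 3 rows over 89.7 kb of chromosome 12 (28249752 to 28339446, minus strand). The row that starts at 28249752 was at 2.18, 1.24, 4.18 and 1.63 RPM in the cKO and at 6.88, 12.5 and 17 RPM in the WT. The row at 28320656 was at 7.92, 3.71, 11.8 and 3.50 RPM in the cKO and at 25.3, 30.7 and 34.0 RPM in the WT. The row at 28328867 was at 2.67, 1.56, 5.92 and 1.28 RPM in the cKO and at 9.64, 14.7 and 25.5 RPM in the WT. The log2 fold changes were -1.99 (SE 0.38), -2.13 (SE 0.38) and -2.23 (SE 0.44). In the row at 28249752 every cKO library was below every WT library. For the other rows, which are among the leading decreases, this was a condition of the choice. In cKO replicate 3 all 3 rows were above the other cKO libraries. Rows that share 1 gene name are not independent, and all 3 calls were lost without WT replicate 2 (adjusted p up to 0.0724 in limma).

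**Figure D2:**
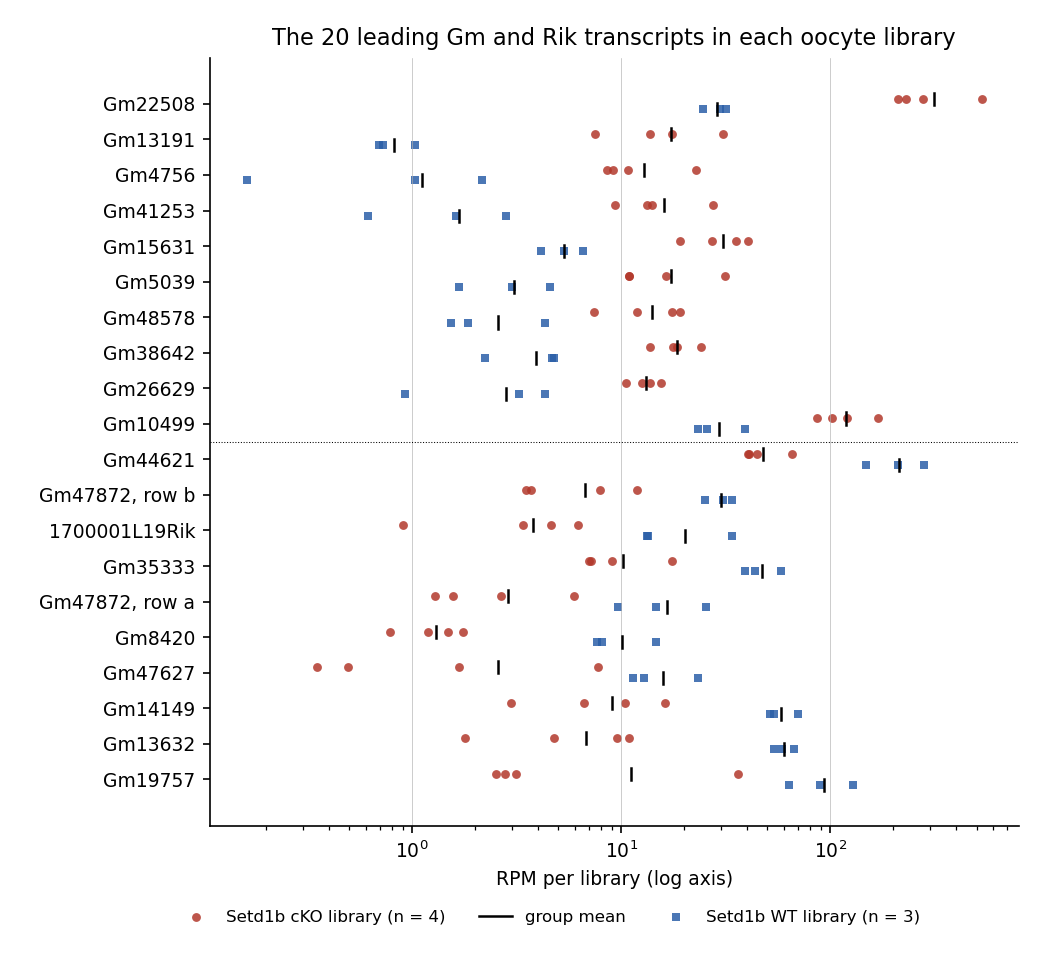
RPM of the 10 members with the largest increase (above the dotted line) and the 10 with the largest decrease (below it) among called members at a mean of 4 RPM or more whose genotypes did not overlap, in each Setd1b cKO (circles, n = 4) and Setd1b WT (squares, n = 3) library, on a log axis with group means as bars. For Gm47872, row a starts at 28328867 and row b at 28320656. The gap between the genotypes was a condition of the choice. Gm19757 in cKO replicate 2, at 36.2 RPM, stands above the other cKO libraries, which are at 2.53 to 3.15 RPM.

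The members that drew the most reads gave another picture, with lower values in the cKO or no call. RPM are not per length, so these levels do not rank the transcripts by molecules. Gm813, now Ftdc1, and E330017A01Rik, now Ftdc2, are neighbouring coding genes within 32.9 kb of chromosome 16, named for a ferritin domain. The row named Gm813 shares 29.2% of the joint span with its gene. Gm813 was at 2504, 2512, 3151 and 3655 RPM in the cKO and 3251, 3840 and 5285 RPM in the WT, and E330017A01Rik at 1642, 1386, 1448 and 2518 RPM in the cKO and 1979, 2587 and 3856 RPM. Both overlapped between the genotypes, with log2 fold changes of -0.47 (SE 0.27) and -0.67 (SE 0.31) that did not pass (limma adjusted p = 0.354 and 0.234). The row named Gm1821, of 20 kb, shares 4.86% of the joint span with that gene, a ubiquitin B pseudogene now called Ubb-ps. It was at 3159 ± 424 RPM (SD, n = 4) in the cKO and 3619 ± 359 RPM (SD, n = 3) in WT oocytes, and the ranges overlapped.

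E330034G19Rik, a coding gene on chromosome 14 (24292753 to 24309966, plus strand), was at 1819, 1494, 1280 and 1534 RPM in the cKO and at 3425, 3580 and 3863 RPM in the WT. It fell by 1.25 on the log2 scale with no overlap (SE 0.23, limma adjusted p = 0.0115; up to 0.0634 without WT replicate 1 or 2). Gm47672 on chromosome 12 (105131092 to 105181143, plus strand), a row named for a processed pseudogene that covers 0.49% of the joint span, has Tcl1b2, of a gene family expressed in oocytes and early embryos, as its best match at 18.4%. It was at 804, 620, 692 and 1024 RPM in the cKO and at 1655, 1557 and 2117 RPM in the WT. Its fall of 1.19 on the log2 scale (SE 0.25, limma adjusted p = 0.0192) missed the threshold without cKO replicate 1 or 3 or without any 1 of the WT replicates (adjusted p up to 0.0709). After quantile normalisation both E330034G19Rik and Gm47672 missed 2-fold, with log2 fold changes of -0.90 and -0.97, and neither passed with no filter on low values (adjusted p of 0.130 and 0.102 in limma).

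The remaining 3 of the 8 had wide spreads. E330021D16Rik was at 1472, 1438, 964 and 610 RPM in the cKO and 2427, 2264 and 1561 RPM in the WT, every cKO library below every WT library but not past the test (log2 fold change -0.95, SE 0.33, limma adjusted p = 0.122). Gm10436, now Pramel51 of the PRAME-like family of leucine-rich repeat proteins, and Gm2042 lie together on chromosome 12 and were at 1519 ± 484 and 1456 ± 539 RPM in the cKO (SD, n = 4) and at 1617 ± 409 and 1541 ± 462 RPM in WT oocytes (SD, n = 3). Both were low in cKO replicate 4 (853 and 709 RPM) and WT replicate 3 (1159 and 1008 RPM), and the sign of their difference turned when cKO replicate 4 was left out (log2 fold changes of 0.13 and 0.19).

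The reads of the whole set were summed in each library. The members took 6.52% ± 0.372 of the mapped reads of the cKO (SD, n = 4) and 7.35% ± 0.586 of those of the WT (SD, n = 3), which differ by -0.830 percentage points, with the highest cKO library at 7.04% and the lowest WT library at 6.97%. Reads within any transcript made up 83.6% to 86.8% of the mapped reads of the cKO libraries and 90.1% to 90.4% of those of the WT. As a share of reads within transcripts the members took 7.63% ± 0.413 and 8.14% ± 0.649, a difference of -0.511 percentage points with overlap. The 8 with the most reads held 21.9% ± 1.55 of the members' reads in the cKO and 28.8% ± 0.649 in the WT, without overlap. Members below 16 RPM took 0.774% ± 0.0561 of the mapped reads in the cKO and 0.668% ± 0.0444 in the WT, and those over 64 RPM took 4.50% ± 0.300 and 5.43% ± 0.523. These sums are over members chosen on their level and have no test.

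**Figure D3:**
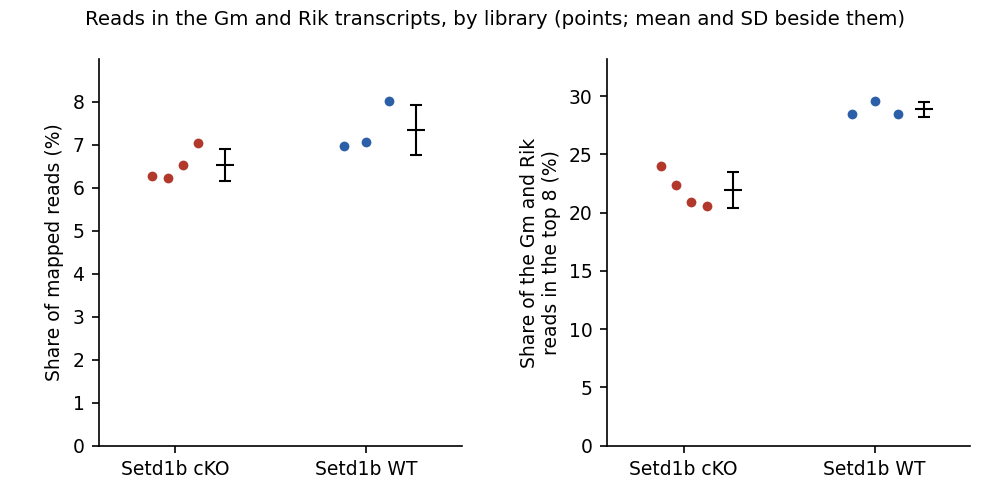
Points are libraries, with the mean and SD of each genotype beside them (4 libraries of the cKO and 3 of the WT). The panels give the percentage of mapped reads in the 2043 Gm and Rik transcripts and the percentage of those reads in the 8 with the most reads. The first lies lower on average in the cKO, and the second is lower in every cKO library than in any WT library.

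By level, the share of calls and their direction differed along the range. From 1 to 4 RPM 30 members were higher and 10 lower of 768 tested, from 4 to 16 RPM 47 and 15 of 647, from 16 to 64 RPM 21 and 18 of 408, and over 64 RPM 8 and 14 of 205. The median log2 fold change went from 0.23 in the lowest range through 0.17 and 0.04 to -0.07 in the highest. All rows tested had medians of 0.23, 0.17, 0.06 and 0.00 over the same ranges. The members passed in 5.21%, 9.58%, 9.56% and 10.7% over these ranges, same-strand rows with another symbol in 3.99%, 4.61%, 5.0% and 5.78%, and rows with no annotated gene in 5.74%, 11.1%, 10.8% and 12.2%. The members thus lay between both at each level, and the differences were not tested. Over all rows tested the shares were 4.61%, 6.56%, 6.0% and 6.15%. After centring the counts from the lowest range to the highest were 17 higher and 15 lower, 33 and 24, 13 and 29, and 5 and 17. After quantile normalisation they were 11 and 18, 31 and 20, 13 and 19, and 6 and 12, and the medians, at -0.016, 0.0059, -0.015 and -0.032, no longer fell in steps along the range.

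The gene type assigned by GENCODE M21 split the members into classes of unequal size. The type is that of the gene a row is named for, and only 947 of the 2043 members matched that gene by span. Matches were not counted within each type. Rows named for RNAs annotated as antisense passed in 14.5% of 131 tested, with 15 higher and 4 lower and a median log2 fold change of 0.32. Over all rows 5.71% passed, 3.76% higher and 1.95% lower, with a median of 0.12, and the shares of the classes below are to be read against these values. The excess of higher calls among the antisense rows held after centring, with 13 and 5, and after quantile normalisation, with 11 and 5. Over all rows 458 were higher and 531 lower after centring, and 428 and 442 after quantile normalisation. Among the antisense rows 4930592C13Rik (chromosome 3, 157527515 to 157534077, minus strand) was at 11.1, 12.3, 12.5 and 12.7 RPM in the cKO and at 2.75, 1.31 and 3.56 RPM in the WT, while its partner on the other strand was at 50.6 ± 3.52 RPM (SD, n = 4) and 39.8 ± 4.13 RPM (SD, n = 3). Gm13075 was at 315, 248, 201 and 379 RPM in the cKO and at 61.2, 81.2 and 86.2 RPM in the WT (log2 fold change 1.87, SE 0.26, limma adjusted p = 0.00417).

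Other long non-coding RNAs passed in 9.78% of 849 tested, with 54 higher and 29 lower in RPM but 34 and 44 after centring. 9230106D20Rik, a lincRNA on chromosome 10, rose from 0.579 ± 0.465 RPM (SD, n = 3) to 5.80 ± 1.30 RPM (SD, n = 4), and 4930473O22Rik, also on chromosome 10, from 0.534 ± 0.517 to 4.93 ± 0.733 RPM. Both had a WT mean below 1 RPM and became members only through the cKO. A330069E16Rik, a divergent lincRNA on chromosome 2, rose from 7.83 ± 4.98 RPM (SD, n = 3) to 28.7 ± 7.06 RPM (SD, n = 4). Coding gene models passed in 6.14% of 472 tested (18 higher, 11 lower) and pseudogenes in 5.13% of 468 (15 higher, 9 lower), both near the share over all rows. After centring these balances turned to 8 higher and 13 lower and to 10 and 19, and after quantile normalisation to 6 and 10 and to 9 and 12. Among pseudogenes 4932415M13Rik rose from 2.25 ± 0.979 to 10.8 ± 4.09 RPM and Gm15931 fell from 7.89 ± 4.89 to 0.730 ± 0.635 RPM. Of 49 TEC members tested 4 were lower and 0 higher in limma, with 5 higher at an unadjusted p under 0.05 and 0 in voom. Gm37457 fell from 14.1 ± 1.90 to 4.15 ± 1.38 RPM and Gm34073 from 4.36 ± 0.460 to 1.21 ± 0.445 RPM. The rows named 4932415M13Rik, Gm37457 and Gm34073 share only 7.17%, 15.7% and 0.560% of the joint span with those genes. Those named 4930473O22Rik, A330069E16Rik and Gm15931 share 33.5%, 33.2% and 48.5%. Members of other types, mainly rows named for small RNAs, had 4 higher and 0 lower of 58 in limma, with 1 lower at an unadjusted p under 0.05 and 0 in voom. Gm44474, a row named for a miRNA gene that fills 0.375% of the joint span, rose from 22.1 ± 6.20 to 50.1 ± 7.97 RPM. The calls of 4932415M13Rik and A330069E16Rik were lost without WT replicate 1 or 2 (adjusted p up to 0.0710 and 0.0750 in limma), those of Gm15931 and Gm37457 without WT replicate 2 (up to 0.0556 and 0.0517), and those of Gm44474 and Gm34073 without cKO replicate 1 or 3 or WT replicate 1 or 2 (up to 0.112 and 0.0914), for Gm34073 also without WT replicate 3. Rik symbols passed in 8.92% of 437 and Gm symbols in 7.79% of 1591.

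**Figure D4:**
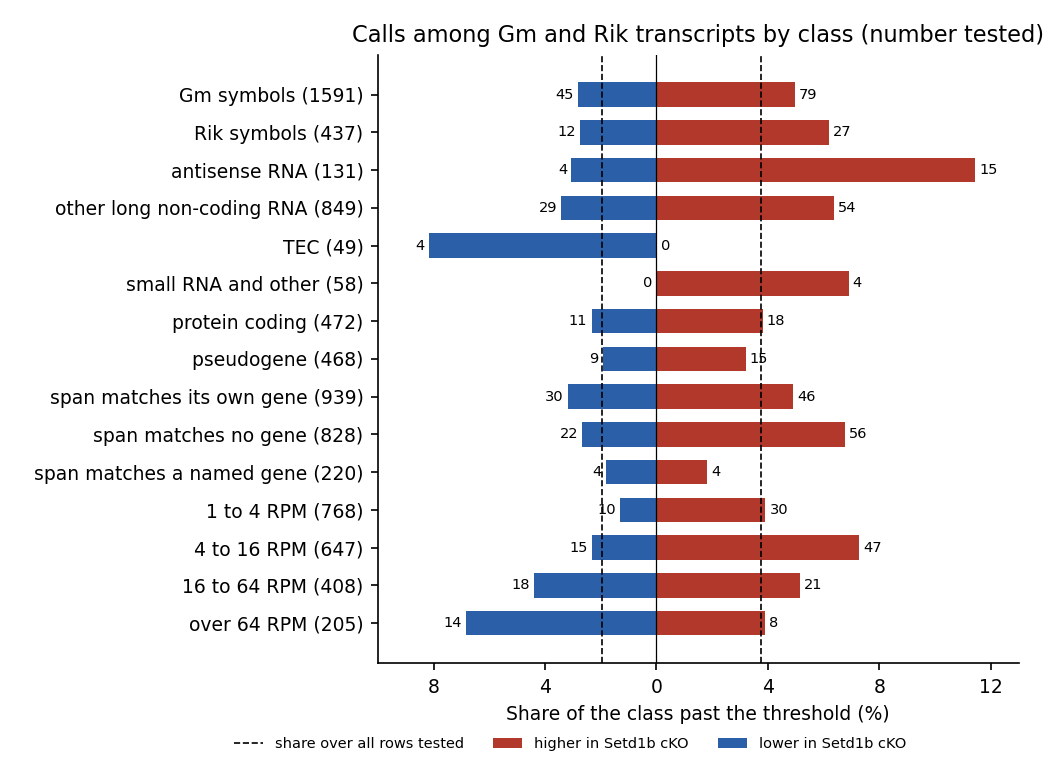
Bars give the percentage of tested members of each class past the threshold, higher in the Setd1b cKO to the right and lower to the left, with the number of members at the end of each bar and the number tested in brackets. Dashed lines mark the shares over all 18179 rows tested, 3.76% higher and 1.95% lower. Rows named for antisense RNAs reach furthest to the right and TEC rows furthest to the left.

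A placeholder symbol was often not the gene whose span a row matched. Rows were put in classes by the gene with the largest share of the joint span, where that share was at least 50%. The best match was the GENCODE gene they are named for in 947 members, a gene with a proper name in 220 and another placeholder gene in 41, and 835 matched no gene. Of the rows with another best match, 26 also shared at least 50% with the gene they are named for. Of 39 rows named Gm20388, a long model that runs over many genes, 21 matched a named gene, such as Cox4i1, a subunit of cytochrome c oxidase, with 359 RPM in the cKO and 342 RPM in the WT, and Tubb3, a tubulin, with 417 and 282 RPM. Of 38 rows named Gm20388 that were tested, 0 passed the threshold in limma or voom, and at an unadjusted p under 0.05 4 were higher and 1 lower. Rows that matched a named gene passed in 3.64% of 220 (4 higher, 4 lower), and those that matched their own gene in 8.09% of 939 (46 higher, 30 lower). Where the span matched no gene, 9.42% of 828 passed (56 higher, 22 lower). The share over all rows was 5.71%. After centring the rows that matched their own gene had 29 higher and 44 lower and those that matched no gene 38 and 33, and after quantile normalisation 25 and 37 and 35 and 27. Rows that matched a named gene had 1 and 6 after centring and 1 and 4 after quantile normalisation.

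Some called rows had a named gene as their best match. The row named Gm28707 has 91.4% of its joint span in common with Hivep1, a zinc finger transcription factor, and was at 34.2, 29.4, 22 and 38 RPM in the cKO and at 90.3, 130 and 126 RPM in the WT. It fell by 1.87 on the log2 scale (SE 0.25, limma adjusted p = 0.00362). The row named Gm48893 matched Arhgap18 by 74.0%, and was at 55.7, 62.3, 89.1 and 69.3 RPM in the cKO and 187, 206 and 237 RPM in the WT (log2 fold change -1.61, SE 0.22, limma adjusted p = 0.00417). The row named Gm42645 matched Rhoh, a small GTPase known from blood cells, by 80.3% and fell from 119 ± 23.7 RPM (SD, n = 3) to 45.7 ± 10.7 RPM (SD, n = 4). The row named Gm45808 matched the dehydrogenase gene Dhdh by 87.3% and its own gene by 60.2%, and rose from 66.0 ± 49.5 RPM (SD, n = 3) to 214 ± 76.1 RPM (SD, n = 4). The Gm45808 call was lost without cKO replicate 1, 3 or 4 or WT replicate 1 or 2 (adjusted p up to 0.172 in limma) and in 13 of 19 alternative fits in all, centring, quantile normalisation and voom among them (up to 0.246), and that of Gm42645 without WT replicate 1 or 2 (up to 0.0642).

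RefSeq gives a proper symbol to 58 members, of which 2 were higher and 2 lower, a share of 6.90% beside 5.71% over all rows. Gm14851, now Defa38 of the alpha-defensins, small antimicrobial peptides, had no read in any cKO library and was at 2.59, 2.85 and 4.21 RPM in the WT. A count of 0 allows 3 reads a library, a mean of 0.289 RPM, so its level was at least 11.1-fold lower in the cKO (limma adjusted p = 0.00338). A430078G23Rik, now Arhgef18, fell from 2.32 ± 0.791 to 0.487 ± 0.281 RPM, a call lost without any 1 of the cKO replicates (adjusted p up to 0.101 in limma). The row named 2010005H15Rik, which shares 12% of the joint span with that gene, now Csta2 of the cystatins, rose from 0.888 ± 0.220 to 4.53 ± 1.60 RPM (up to 0.0827 without cKO replicate 3 or WT replicate 1 or 2), and the row named Gm13942, with 38.1% of the joint span of that gene, now A26c3, from 3.52 ± 2.53 to 11.9 ± 3.21 RPM (up to 0.131 without any 1 of the cKO replicates or WT replicate 1 or 3). The Gm13942 call was lost in 13 of 19 alternative fits, centring, quantile normalisation and voom among them (adjusted p up to 0.190 in limma). At the other end, 5 members had 3 reads or fewer in every WT library, 3 of which were not tested, and of the remaining pair the row named Gm29018, which shares 1.31% of the joint span with that antisense RNA of chromosome 1, passed, with 3.46, 2.80, 2.70 and 5.24 RPM in the cKO and 0.0810, 0.231 and 0.281 RPM in the WT. Gm14851 and A430078G23Rik had a cKO mean below 1 RPM and became members only through the WT. 2010005H15Rik and Gm29018 had a WT mean below 1 RPM and became members only through the cKO. The changes of these rows were thus part of their selection. More than 3 reads in all 7 libraries were found for 1854 members (90.7%).

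Because the strand was not stated to enter the counting, it is not known how far reads of a member and of a transcript on its other strand were told apart. Some overlapping rows were near 0: that of E330034G19Rik was at 0 RPM in the cKO and 0.0839 RPM in the WT (means). Of the members 640 overlap another row on the opposite strand and 1403 overlap none, and they passed in 8.19% and 7.97% of those tested, against 5.71% over all rows. For 461 members the overlapping row was tested too, in 446 distinct pairs, since a pair of members counts once, and 68.4% of these pairs had the same sign, while 10971 of all 18179 rows tested lay above 0. Of 33 called members with a tested partner, 9 had a partner that also passed, each in the same direction, and 23 had a partner of the same sign. Over all 461 members 27 partners passed (5.86%). The shared sign was not tested. 4930473O22Rik overlaps Kera, which encodes the proteoglycan keratocan, and Kera rose from 7.16 ± 4.89 RPM (SD, n = 3) to 39.4 ± 5.85 RPM (SD, n = 4; log2 fold change 2.56, limma adjusted p = 0.0101). In Gm16191 the fall of 1.59 on the log2 scale stood beside a partner that fell by 1.65, from 93.3 ± 15.7 to 28.7 ± 1.5 RPM. 4931428L18Rik fell by 1.24 on the log2 scale and its partner by 1.28, from 430 ± 129 to 173 ± 30.2 RPM. Other members moved while the partner did not pass: 2500004C02Rik rose by 1.58 on the log2 scale beside a partner at 59.3 ± 2.46 RPM in the cKO and 60.4 ± 10.5 RPM in the WT, and Gm4032 by 1.5 beside one at 366 ± 42 and 418 ± 72.8 RPM.

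A further geometry is the divergent pair, in which a row on the other strand starts within 1 kb and reads away. It was found for 245 members, of which 14 were higher and 5 lower, 7.85% of the 242 tested against 8.06% of the other members and 5.71% of all rows. Of 11 called members with a tested partner, 2 had a partner past the threshold, against 11 of all 156 (7.05%), both in the same direction, Gm15631 with Cntn4 and Gm10556 with an unnamed row that fell from 20.6 ± 3.79 to 3.03 ± 0.937 RPM. Among the rest, Gm34121 rose by 1.26 on the log2 scale beside Herc2, a ubiquitin ligase gene, at 45.9 ± 7.84 and 52.3 ± 3.49 RPM in the cKO and WT. 2810403D21Rik rose by 1.24 beside Brwd3, at 7.90 ± 0.450 and 15.5 ± 6.09 RPM, which did not pass (limma adjusted p = 0.116). In all, the partner was tested for 156 members, in 147 distinct pairs, of which 60.5% had the same sign.

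**Figure D5:**
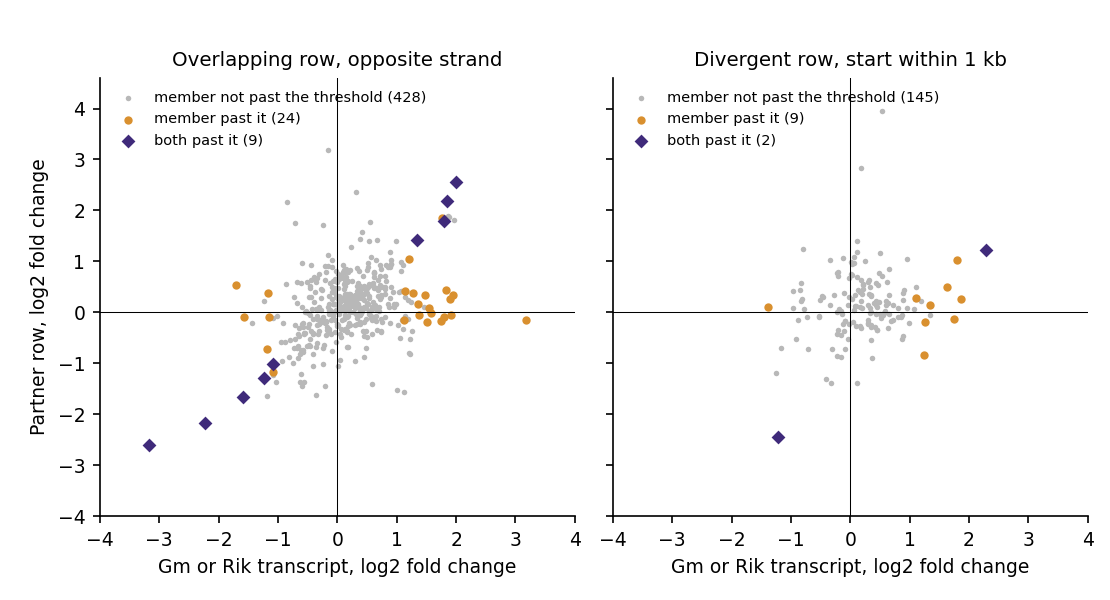
Each point is a member tested together with its partner row, with the log2 fold change of the Gm or Rik transcript on the horizontal axis and that of the row on the other strand on the vertical axis, for 461 members with an overlapping row (left) and 156 with a divergent row (right). A pair of 2 members gives 2 points. The 9 overlapping and 2 divergent pairs of called rows (diamonds) lie on the same side of 0 on both axes, and the other called members (circles) mostly have partners near 0.

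CpG dinucleotides were counted in the promoters of the members. Of 756 members whose symbol has a RefSeq promoter, 379 had it within 500 bases of the start of the row. Their promoters held a median of 9 CpG in 300 bases, against 21 in 5184 same-strand rows with another symbol and 7 over all 32851 RefSeq promoters. Within the members, Gm symbols had a median of 5 CpG and Rik symbols of 19. The medians were 8 in 26 higher, 6.5 in 10 lower and 9 in 340 uncalled members, and no test was made of these numbers.

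Motifs were searched by their letters on both strands. TATAAA, the core of the TATA box, was found in 8 of 26 higher members (30.8%), in 2 of 10 lower ones (20%), in 6.76% of those not called and in 13.6% of all RefSeq promoters. Among the sequences printed above Gm10499 and Gm35333 hold it. CCAAT was found in 42.3% of the higher, 50% of the lower and 44.1% of the uncalled members, against 37.4% of all promoters. GGGCGG, the core letters of a GC box, was found in 30.8%, 10% and 41.8%, against 35.7% of all promoters, and TAATTG in 11.5%, 10% and 6.76%, against 8.0%. None of these motifs contains another. A match is a description of the letters and not a binding site.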

How the data were processed

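RNA was measured in 7 libraries of 1 GV oocyte each, 4 Setd1b cKO and 3 Setd1b WT, grouped by their labels. The authors used the SMARTer Ultra Low kit for cDNA, trimmed the single reads, mapped them to GRCm38 with Hisat, removed hits of low mapping quality and quantified oocyte transcripts with merged isoforms in SeqMonk. That filter bears on members with near-identical copies. Per the labels, bcl2fastq 1.8.4 and featureCounts 1.4.4 were also among the tools. Whether counting used the strand is not given in the sources used here. Values were deposited as log2 RPM, for which the authors divided by mapped reads and put 0.9 read in place of 0. Whole reads were recovered for 100% of the values (within 0.01 read).

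Members were same-strand Gm or Rik rows with a mean of at least 1 RPM, outside 3 windows. Members and lists were chosen with earlier results of these data known. Values were transformed to log2(RPM + 1), and rows that reached 1 RPM in 3 or more libraries were tested in limma 3.58.1 (R 4.3.3) with an intensity trend and Benjamini-Hochberg adjustment over all 18179 rows. Calls needed an adjusted p under 0.05 and over 2-fold. The study's model for counts was not run. The main test used the log scale of the deposited values, and the recovered reads entered only voom, as an alternative. Fits were tested on simulated data. Spans were compared with GENCODE M21, and promoters came from RefSeq (GRCm38.p6). Python 3.11.15 with pandas 2.3.3, scipy 1.17.1 and matplotlib 3.10.9 was used otherwise. No pair of libraries agreed within sampling noise (chi-square over its degrees of freedom 11.9 or more).

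Named were, among called members at a mean of 4 RPM or more whose genotypes did not overlap, the 10 largest increases and decreases, the 8 members with the most reads, runs of 3 called members within 200 kb, and up to 4 examples of each class (symbol form, gene type, overlap, divergence, RefSeq name and span match) by the size of the change. Alternatives were other pseudocounts, filters, scalings and variance models, voom on the recovered reads, a replicate block, other member levels and leaving out each library. The labels give no batch.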

Additional observations from a re-analysis of the deposited data

Results flagged for a closer look

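Among 52 sets of 4 cKO values examined, 3 had a library far from the other 3, where chance alone gives about 1 in 20, or 2.6. In Gm19757 cKO replicate 2 was at 36.2 RPM and the other cKO libraries at 2.53 to 3.15 RPM, a gap of 0.982 of the group's range. In Gm4756 cKO replicate 2 was at 22.8 RPM and the others at 8.51 to 10.8 RPM, a gap of 0.840 of the range. In Gm44621 cKO replicate 4 was at 65.7 RPM and the others at 40.3 to 44.4 RPM, a gap of 0.836 of the range.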

How the results depend on the processing

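The count of higher members, 106, moved to 48 with a pseudocount of 5 RPM, 22 with no filter on low values, 68 after centring, 61 after quantile normalisation and 65 with voom on the recovered reads, and the 57 lower ones to 20 with no filter. Over all rows, 683 higher and 355 lower, the higher count was 315, 174, 458, 428 and 443 under these 5 settings, and the lower one 129 with no filter. Leaving out 1 library gave 22 to 122 higher and 18 to 73 lower members, and 171 to 850 higher and 109 to 437 lower rows, with the lowest without WT replicate 2 and the highest without cKO replicate 4. Without both cKO replicate 4 and WT replicate 3, a choice made after seeing the data, 1029 rows were higher. Members that overlap no other row gave 37 lower calls, and those that match their own gene, also added after seeing the data, 46 higher and 30 lower, since each set holds fewer members. The median log2 fold change of the members, 0.14, was -0.016 after centring, 0.21 when scaled to reads within transcripts and -0.0061 after quantile normalisation. A replicate block gave 132 higher and 79 lower members, but same-numbered libraries deviated together with r = 0.192, 0.295 and -0.129, so the numbers do not show a pairing. The sign turned in 3 transcripts with no call: Gm1821 was 0.20 on the log2 scale after quantile normalisation, and Gm10436 and Gm2042 were 0.11 and 0.062 after it, 0.13 and 0.19 with the replicate block and without cKO replicate 4, and -0.35 to 0.13 and -0.41 to 0.19 over the fits without 1 library. Of the 20 leading members 7 were called in all 19 alternative fits, and for the others the cause of a lost call was not tested. At 0.0771 to 0.117 RPM a read, members near 1 RPM rest on about 10 reads a library, which limits their precision.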
